A study of Mus musculus with 12 samples.

Results

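A set of 9 genes for the homeostatic work of Müller glia was followed across rods and whole retina of the mouse. The genes were Glul, Slc1a3, Apoe, Aqp4, Kcnj10, Dkk3, Clu, Vim and Sox9, chosen by name, and each matched 1 row of a table of 56748 genes, so that 9 of 56748 genes are described. The RNA came from mice in which the pyruvate kinase isoform PKM2 was deleted in rod photoreceptors and from their littermate controls. All mice were RiboTag homozygotes, which carry a ribosomal protein that gains a tag in cells with Cre, and all carried i75-Rod-Cre, driven by the rhodopsin promoter and active in rods. Controls were Pkm2 fl/+, so they kept 1 Pkm2 allele that Cre cannot remove, and knockouts (Pkm2 Rodko) were Pkm2 fl/fl. The deposited description gives an age of 2 weeks and the methods give 2 months, and this was not resolved. Tagged polyribosomes pulled down from retinal lysate (Rod-TRAP) gave the rod libraries, and total lysate gave the retina libraries, with 3 libraries in each of 4 groups.

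Müller glia are the radial glia that span the whole thickness of the retina. They take up glutamate released by neurons and turn it into glutamine, carry potassium and water away from active synapses, supply lipid and protein chaperones to neurons, and hold a cytoskeleton of intermediate filaments that rises after injury. The rod Cre is not meant to act in Müller glia.

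Total reads ran from 13458890 to 22790074 per library. The 9 genes took 0.0385% to 0.0594% of the reads in rod libraries and 0.457% to 0.570% in retina libraries. In counts this was 6363 to 13077 reads per rod library and 77219 to 115144 per retina library. Sox9 had the fewest, with 16 to 39 reads per rod library. Pkm, the targeted gene, averaged a normalised value of 52565 ± 1766 in control rods and 22850 ± 795 in knockout rods (SD, n = 3 each; limma adjusted p = 5.36e-05, and 0.0784 without the variance trend). All 15 rod markers were higher in rods than in retina in controls, with a median log2 difference of 1.91. Nothing in the labels says whether the 3 libraries of a group came from separate animals, so the p-values measure only the spread between these libraries.

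Proximal promoter sequence from the RefSeq table of build GRCm38.p6 was kept for 5 of the 9 genes (Glul, Slc1a3, Apoe, Kcnj10 and Vim). A filter by chromosome was applied before this count. The 250 bases before the annotated start are printed for Glul, Slc1a3 and Kcnj10, because these genes stand for glutamate and potassium handling. Capitals mark CCAAT or its reverse complement ATTGG, and TATAAA or its reverse complement TTTATA. Each sequence runs 5′ to 3′ on the strand of its gene.
Glul (chr1:153899679-153899928, plus strand): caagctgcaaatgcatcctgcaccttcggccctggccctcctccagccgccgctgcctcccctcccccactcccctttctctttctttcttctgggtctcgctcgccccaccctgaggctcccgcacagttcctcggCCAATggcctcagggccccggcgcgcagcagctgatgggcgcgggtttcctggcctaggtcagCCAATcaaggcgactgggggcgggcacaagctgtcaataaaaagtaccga
Slc1a3 (chr15:8710808-8711057, minus strand): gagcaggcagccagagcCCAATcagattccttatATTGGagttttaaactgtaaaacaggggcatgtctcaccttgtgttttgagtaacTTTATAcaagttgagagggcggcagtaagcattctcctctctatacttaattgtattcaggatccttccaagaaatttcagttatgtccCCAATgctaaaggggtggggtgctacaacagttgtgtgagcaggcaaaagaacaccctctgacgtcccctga
Kcnj10 (chr1:172340960-172341209, plus strand): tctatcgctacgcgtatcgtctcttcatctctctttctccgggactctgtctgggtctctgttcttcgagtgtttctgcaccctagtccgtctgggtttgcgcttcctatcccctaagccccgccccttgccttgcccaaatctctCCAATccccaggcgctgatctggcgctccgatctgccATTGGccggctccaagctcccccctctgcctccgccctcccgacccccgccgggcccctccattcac
The letters CCAAT, read on both strands, occurred in these windows and in that of Vim. This makes 4 of the 5 genes with a window kept, and 4 of their 7 windows. None of the 3 Apoe windows held these letters. Among 32851 windows of the same length, 33.8% held CCAAT on either strand and 12.4% held TATAAA. A match describes the letters in the window and shows no factor at work there.

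All 9 genes were lower in control rods than in control retina. To set the fractions side by side, reads recovered from the table were scaled by TMM over the 12 libraries. Called here means a Benjamini-Hochberg adjusted p below 0.05 over all genes tested. All 9 genes were called lower, against 35.5% of the 25584 genes tested (23.5% were called higher), and their median log2 difference was -2.90, against -0.37 over all genes. In knockouts all 9 were again called lower, against a background of 35.1%, with a median of -3.09. Rod and retina libraries did not overlap for any of the 9, where 36.6% of all genes in controls and 36.7% in knockouts had every rod library below every retina library. Scaling by total reads moved the median of all genes in controls to -0.76 and that of the 9 genes to -3.45, so the gap between them was similar. The same scaling changed the calls over all genes from 9083 lower and 6001 higher to 12706 lower and 2184 higher.

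**Figure D1:**
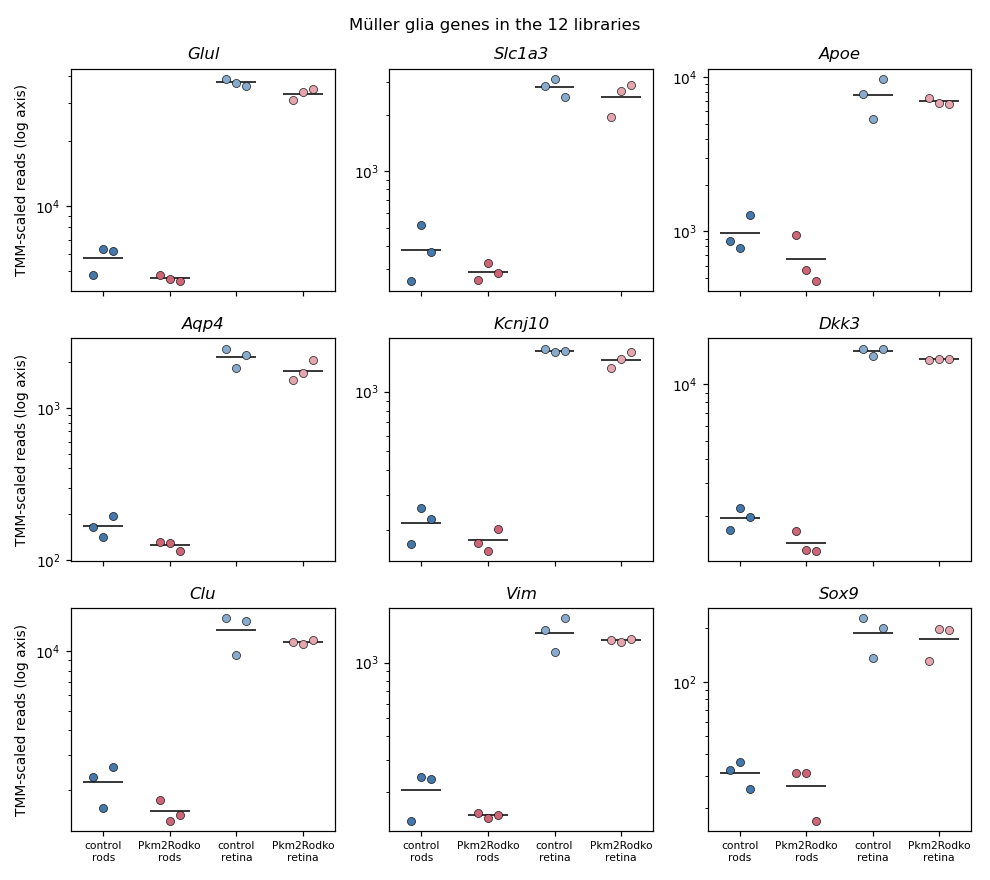
TMM-scaled reads of the 9 genes in the 12 libraries, on log axes that differ between panels, with 1 point per library and a line at the mean of each group of 3. In every panel the 6 rod libraries lie below the 6 retina libraries.

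Glutamate handling was read from Glul, the glutamine synthetase of Müller glia, and Slc1a3, the glutamate transporter GLAST. Glul had 4778, 6351 and 6213 TMM-scaled reads in control rods and 38714, 37063 and 35832 in control retina. The lowest retina library was far above the highest rod library. Rods held 15.5% of the retina level (log2 difference -2.70 ± 0.10 SE, limma adjusted p = 2.65e-11). Slc1a3 had 260, 515 and 369 scaled reads in control rods and 2830, 3109 and 2485 in control retina. Its rod libraries differed widely from each other, yet all 3 were below retina, at 13.6% of the retina level (log2 difference -2.93 ± 0.20 SE, limma adjusted p = 4.16e-09). Of the 12 genes of a list for glutamate and ammonia handling, which includes both, 6 were lower and 6 higher in control rods. Slc38a3, a glutamine transporter, was higher by 1.21 on the log2 scale and Slc1a7, the glutamate transporter of photoreceptor and bipolar terminals, by 1.16. Slc1a2, the transporter GLT-1, was 0.47 higher on the TMM scale and -0.086 when scaled by total reads, so its direction depended on the scaling.

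Potassium and water transport was read from Kcnj10, the inwardly rectifying potassium channel Kir4.1, and Aqp4, the water channel that sits beside it at glial endfeet. Kcnj10 had 170, 258 and 227 scaled reads in control rods and 1649, 1580 and 1609 in control retina. The retina libraries were close together and the rod libraries spread more widely, with no overlap. The rod level was 13.5% of retina (log2 difference -2.90 ± 0.14 SE, limma adjusted p = 1.30e-10). Aqp4 had 165, 142 and 194 scaled reads in control rods and 2442, 1835 and 2210 in control retina. It was the lowest of the set in rods relative to retina, at 7.73% in controls and 7.17% in knockouts. Its log2 difference was -3.69 ± 0.14 SE (limma adjusted p = 3.05e-11). Of 12 genes for potassium and water channels and their anchoring complex, both included, 9 were lower in control rods. Kcnj2, another inward rectifier, was lower by -3.55, on 3 to 33 reads per control rod library. With 1 library left out its difference ran from -4.08 to -2.84. Dmd, dystrophin, was 0.47 higher on the TMM scale and -0.078 when scaled by total reads. Dag1, dystroglycan, was not called at 0.04 on the TMM scale and was -0.51 when scaled by total reads.

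Lipid carriage and extracellular chaperones were read from Apoe, an apolipoprotein, and Clu, clusterin. Apoe had 866, 785 and 1280 scaled reads in control rods and 7764, 5367 and 9782 in control retina. In both fractions control library 2 was lowest and control library 3 highest. Rods held 12.8% of the retina level (log2 difference -2.96 ± 0.24 SE, limma adjusted p = 3.21e-08). Clu had 2330, 1633 and 2635 scaled reads in control rods and 14596, 9609 and 14240 in control retina. Library 2 was again lowest in both fractions. Its rod level was 17.2% of retina, which with Sox9 was the highest of the set (log2 difference -2.55 ± 0.17 SE, limma adjusted p = 3.07e-09). Of 12 genes for apolipoproteins and lipid export, both included, 9 were lower and 3 higher in control rods. Lrp1, a receptor that takes up lipoproteins, was lower by -3.23. Abcg1, a cholesterol exporter, was higher by 1.29 and Vldlr, a lipoprotein receptor, by 1.01. Abca1, another exporter, was 0.57 higher on the TMM scale and -0.028 on the deposited values.

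Dkk3, a secreted glycoprotein of the Dickkopf family, had 1675, 2205 and 1970 scaled reads in control rods and 15311, 14011 and 15400 in control retina. The rod libraries reached 13.1% of retina, with no overlap (log2 difference -2.94 ± 0.10 SE, limma adjusted p = 2.28e-11). Of 12 Dickkopf and Wnt co-receptor genes, Dkk3 included, 10 could be tested, and 6 were lower and 0 higher in control rods at an adjusted p below 0.05 (0 higher at an unadjusted p below 0.05). Lrp5, a Wnt co-receptor, was lower by -2.94.

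The filament and identity genes were Vim, the intermediate filament protein vimentin, and Sox9, a transcription factor of glia and retinal progenitors. Vim had 141, 242 and 235 scaled reads in control rods and 1495, 1135 and 1730 in control retina. Rods held 14.2% of retina, without overlap (log2 difference -2.83 ± 0.18 SE, limma adjusted p = 2.04e-09). Sox9 had 32.7, 36.3 and 25.4 scaled reads in control rods and 224, 135 and 198 in control retina. It had the lowest level of the set in both fractions, and the rod libraries reached 17.0% of retina (log2 difference -2.51 ± 0.28 SE, limma adjusted p = 1.20e-06). Of 12 genes for filaments and glial identity, both included, 10 were lower and 1 higher in control rods. Sox8, another SOX factor, was lower by -3.52, and Synm, the filament protein synemin, was higher by 0.91. Sox8 had 8 to 39 reads per control rod library, and its difference ran from -3.83 to -3.11 with 1 library left out.

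**Figure D2:**
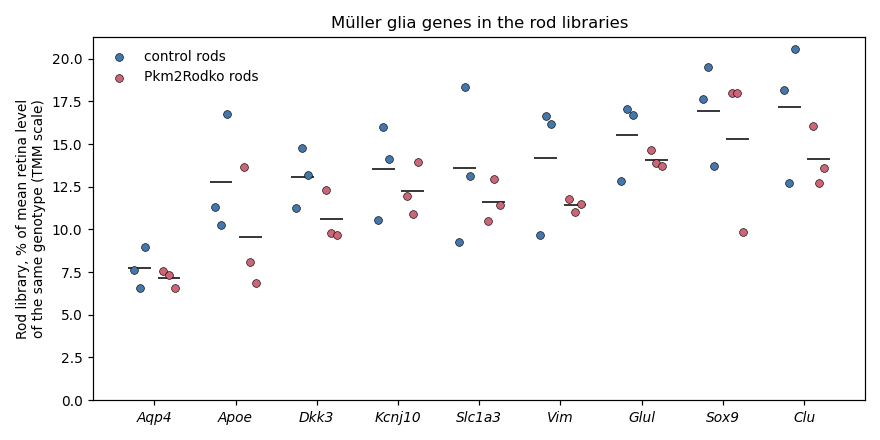
Level of each gene in each rod library as a percentage of the mean retina level of the same genotype, in TMM-scaled reads, with lines at group means. Aqp4 lies lowest, with means of 7.73% in controls and 7.17% in knockouts, and the other genes have control means between 12.8% and 17.2%.

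The order of the genes was similar in both fractions, apart from Aqp4. Levels between genes were compared as TMM-scaled reads per kilobase of exon. In control retina the level per kilobase was 11196 for Glul, 4438 for Dkk3, 3729 for Clu and 3572 for Apoe. The ranges of Clu and Apoe overlapped with each other and reached into that of Dkk3, so the order of those neighbours did not exceed their spread. Aqp4 (347), Slc1a3 (329), Vim (306) and Kcnj10 (298) formed a lower level per kilobase with overlapping ranges, and Sox9 was lowest at 44.9. In control rods the level per kilobase was 1740 for Glul, 640 for Clu, 581 for Dkk3 and 457 for Apoe, with overlap among the last 3. Slc1a3 (44.7), Vim (43.4) and Kcnj10 (40.4) overlapped with each other. Aqp4 was below them at 26.8 per kilobase, with a range of 22.8 to 31.1 that met those of Slc1a3 and Vim and lay below that of Kcnj10, and Sox9 was at 7.62. Aqp4 was at place 5 of 9 in control retina and at place 8 in control rods.

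The shares of the genes among the reads on all 9 do not depend on the scaling between libraries. Aqp4 took 1.17% to 1.59% of these reads in the 6 rod libraries and 2.20% to 2.87% in the 6 retina libraries, without overlap. Dkk3 had a median share of 15.7% in rods and 18.6% in retina, and its highest rod library, at 18.1%, reached into the retina range. For the other 7 genes the fractions overlapped. Glul, for example, took 45.9% to 52.9% of the reads on the 9 genes in rods and 42.9% to 50.2% in retina. Aqp4 was thus the single member whose share set the rod libraries apart from the retina libraries. The difference of the Aqp4 medians was -1.15 percentage points and ranged from -1.24 to -1.07 when any 1 library was left out.

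**Figure D3:**
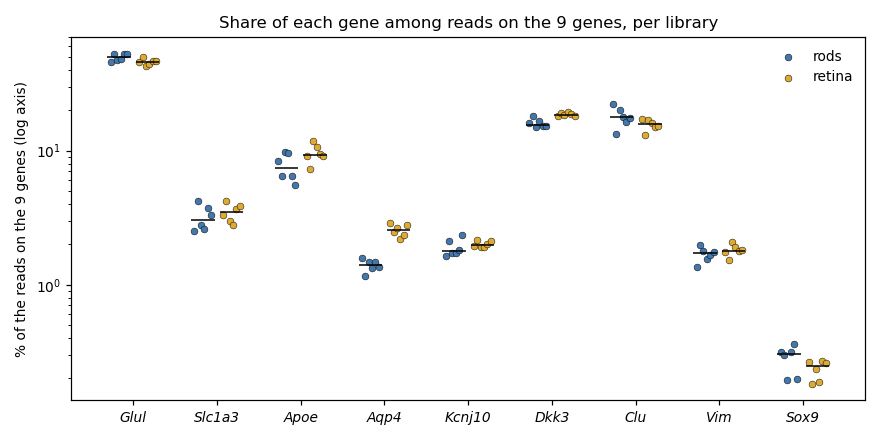
Share of each gene among the reads on the 9 genes, as a percentage on a log axis, with 6 rod and 6 retina libraries as points and a line at each median. Aqp4 separates the fractions, with medians of 1.41% in rods and 2.57% in retina, and the points of the other genes overlap.

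Other genes of Müller glia mostly followed the 9. Of 20 further Müller glia genes, 17 were lower and 1 higher in control rods, with a median log2 difference of -2.53. Rlbp1, the retinaldehyde-binding protein of Müller glia, averaged 1010 ± 136 scaled reads in control rods and 6385 ± 690 in control retina (SD, n = 3 each). Its log2 difference was -2.66 ± 0.14 SE, and that of Abca8a, a lipid transporter, was -3.68 ± 0.16 SE. The exception was Slc16a1, the monocarboxylate transporter MCT1, which was higher in rods by 1.44. Car2, a carbonic anhydrase, and Hes5, a Notch target, were not called. Car2 was 0.15 on the TMM scale and -0.40 when scaled by total reads. Hes5 was -0.68 (limma adjusted p = 0.0831), and its adjusted p ranged from 0.00273 on the deposited values to 0.270 over the alternatives. Markers of several other cell types stood at similar depths, with medians of -3.06 for 12 bipolar, -3.02 for 12 amacrine and -2.95 for 11 ganglion cell markers. Medians were -2.97 for 11 microglia, -2.94 for 11 endothelial and pericyte and -2.50 for 10 pigment epithelium markers. They were -2.80 for 7 astrocyte and -3.04 for 6 horizontal cell markers. Cone markers differed, with a median of -0.70 over 10 genes, of which 9 were called lower and 1 higher.

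In rods, each of the 9 genes had a lower mean in knockouts than in controls, and none passed the adjusted threshold. limma called 0 of 9, where 0.0194% of 20658 genes were called lower, and the smallest adjusted p of the 9 was 0.932. The median log2 fold change was -0.39, against 0.006 over all genes tested. Log2 fold changes were negative for 9 of 9 genes and for 48.9% of all genes. At an unadjusted p below 0.05, 5 of 9 were lower by limma, against 3.41% of all genes. By edgeR 6 were, where 724 (TMM) or 758 (RLE) of 20658 genes were lower. By DESeq2 3 were, where 399 of 20658 were, and neither of the latter called any of the 9. In these bulk libraries, fewer glial cells, less RNA per glial cell and less non-rod RNA in the pulldown cannot be told apart. The genotype values that follow are normalised read counts as deposited, scaled within each fraction.

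Dkk3 had values of 1311, 1729 and 1527 in control rods and 1295, 1042 and 1028 in knockout rods. All 3 knockout libraries were below all 3 controls, by a narrow margin between knockout library 1 and control library 1. The log2 fold change was -0.44 with a 95% interval of -0.70 to -0.18 (limma adjusted p = 0.932). Aqp4 had values of 129, 112 and 150 in control rods and 103, 102 and 91.1 in knockout rods. The groups did not overlap here either, and these 2 were the only such members, against 5.4% of all genes with every knockout library below every control. Its log2 fold change was -0.39 with a 95% interval of -0.77 to -0.01 (limma adjusted p = 0.932).

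Glul had values of 3739, 4980 and 4816 in control rods and 3760, 3617 and 3556 in knockout rods. Control library 1 lay among the knockouts and the other two controls above them. The log2 fold change was -0.30, with a 95% interval of -0.52 to -0.07 (limma adjusted p = 0.932). Clu had values of 1824, 1280 and 2042 in control rods and 1390, 1114 and 1189 in knockout rods. Control library 2 fell inside the knockout range. The log2 fold change of Clu was -0.46, with a 95% interval of -0.78 to -0.14 (limma adjusted p = 0.932). Apoe had values of 678, 616 and 992 in control rods and 742, 445 and 377 in knockout rods. Knockout library 1 exceeded 2 of the 3 controls, so the groups overlapped. Its log2 fold change, the most negative of the set, was -0.58 with a 95% interval of -1.06 to -0.10 (limma adjusted p = 0.932).

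For the remaining 4 genes the unadjusted p was above 0.05 and the intervals reached from a decrease to an increase. Vim had values of 110, 190 and 182 in control rods and 121, 115 and 119 in knockout rods, with control library 1 the lowest of all. Slc1a3 had values of 204, 403 and 286 in control rods and 204, 255 and 224 in knockout rods. Its interval reached from -0.78 to 0.11 and that of Vim from -0.84 to 0.04. Kcnj10 had values of 133, 202 and 176 in control rods and 135, 124 and 159 in knockout rods. Sox9 had values of 25.6, 28.5 and 19.7 in control rods and 24.3, 24.7 and 13.5 in knockout rods. The log2 fold changes were -0.28 for Kcnj10 and -0.26 for Sox9, with the groups overlapping in both.

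**Figure D4:**
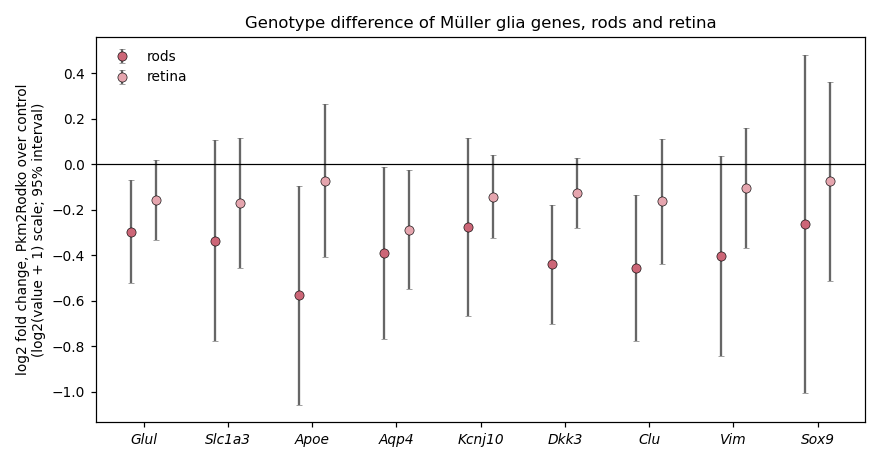
Log2 fold change of knockout over control for the 9 genes in rods and in retina, on the log2(value + 1) scale, with 95% intervals from limma. All 18 points lie below 0, rods between -0.58 and -0.26 and retina between -0.29 and -0.07, and no adjusted p was below 0.05.

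The number of rod members at an unadjusted p below 0.05 rested on single libraries. It was 1 without control library 3, where 613 of 20988 genes were lower by the same rule, and 3 without knockout library 2 (413 of 20898) or knockout library 3 (552 of 21235). It was 7 without control library 1 (810 of 20890), and 4 without control library 2 (773 of 20902) or knockout library 1 (879 of 20674). Summed over the 9 genes, values were 8154, 9540 and 10192 in control rods and 7773, 6838 and 6757 in knockout rods, a description with no test. Marker lists of other cells also had negative medians in rods, at -0.49 for amacrine, -0.44 for bipolar and -0.40 for ganglion cell markers, while rod markers had 0.06. Astrocyte markers had -0.51 (5 of 7 negative) and horizontal cell markers -0.38 (4 of 6). Medians were weaker for endothelial and pericyte (-0.28), pigment epithelium (-0.20), microglia (-0.13) and cone markers (-0.10). Summed microglia markers ran from 262 to 340 in control rods and from 282 to 328 in knockout rods. Summed amacrine markers ran from 1479 to 2067 in control rods and from 1258 to 1411 in knockout rods. Ganglion cell markers ran from 1765 to 2244 and from 1447 to 1877, and bipolar markers from 5025 to 6292 and from 4496 to 5931. Between 0 and 1 of the 12 amacrine markers, and 0 of the bipolar and ganglion cell markers, were at 0 in a rod library. The part of these cells in the result was not tested.

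Among the 20 further Müller glia genes, 0 were called in rods by limma, 3 were lower at an unadjusted p below 0.05 and 16 had a negative log2 fold change, with a median of -0.23. Gpr37, a receptor of glia, averaged 298 ± 49.2 in control rods and 199 ± 12.8 in knockout rods (SD, n = 3 each), a log2 fold change of -0.57 ± 0.15 SE (adjusted p = 0.932). Mlc1, a glial membrane protein, and Rlbp1 were the other two, at -0.51 and -0.37. Of the 12 channel and anchoring genes, Dtna, the dystrobrevin of the dystrophin complex, averaged 88.1 ± 7.82 in control rods and 52.6 ± 4.87 in knockout rods (SD, n = 3 each). Its log2 fold change was -0.73 ± 0.20 SE (limma adjusted p = 0.932), and in 1 fit of all 12 libraries its adjusted p was 0.0372, the lowest of a range up to 0.999 over the alternatives.

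In retina the 9 genes were again lower in mean in knockouts, by less. limma called 0 of 9, where 0.00391% of 25590 genes were called lower, and the smallest adjusted p was 0.947. The median log2 fold change was -0.14, with 9 of 9 negative, where 51% of all genes were negative. At an unadjusted p below 0.05, edgeR had 2 of 9, where 607 (TMM) or 531 (RLE) of 25590 genes were lower. DESeq2 had 2, where 257 of 25590 were, and neither of these called any. By the same rule limma had 1 of 9, against 2.06% of all genes. That member was Aqp4, with values of 2862, 2174 and 2615 in control retina and 1789, 2013 and 2485 in knockout retina. Knockout library 3 lay above the lowest control, so the groups overlapped. Its log2 fold change was -0.29 with a 95% interval of -0.55 to -0.02 (limma adjusted p = 0.947).

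Glul and Dkk3 had every knockout retina library below every control, against 4.76% of all genes. Glul had values of 45361, 43908 and 42392 in control retina and 36396, 40089 and 41670 in knockout retina. Dkk3 had values of 17940, 16598 and 18219 in control retina and 15868, 16061 and 16359 in knockout retina. The gaps between the groups were small beside the spread within them, and the log2 fold changes were -0.16 for Glul and -0.13 for Dkk3. Kcnj10 had values of 1933, 1872 and 1903 in control retina and 1551, 1728 and 1906 in knockout retina, with knockout library 3 inside the control range. Slc1a3 had values of 3316, 3683 and 2940 in control retina and 2289, 3163 and 3485 in knockout retina, with broad overlap. Knockout library 1 was the lowest of the 6 retina libraries for Glul, Slc1a3, Aqp4, Kcnj10, Dkk3 and Sox9.

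The last 4 genes varied more among controls than between genotypes. Clu had values of 17102, 11384 and 16847 in control retina and 13126, 12917 and 13772 in knockout retina. Vim had values of 1751, 1345 and 2047 in control retina and 1562, 1537 and 1614 in knockout retina. Control library 2 was below all knockouts and the other two controls above them in both genes. Sox9 had values of 263, 160 and 234 in control retina and 154, 233 and 234 in knockout retina. Apoe had values of 9098, 6358 and 11572 in control retina and 8724, 8110 and 8131 in knockout retina. Control library 2 was again below all knockouts for Apoe, and its knockout libraries lay within the control range. Without control library 2, 5 of the 9 genes were lower at an unadjusted p below 0.05 in retina, where 962 of 25411 genes were. The count was 2 without knockout library 3 (552 of 25849) and 0 without any of the other retina libraries. The median over bipolar markers in retina was -0.23 (log2), with 12 of 12 negative and 4 lower at an unadjusted p below 0.05. Microglia markers had a median of -0.28, with 10 of 11 negative and 1 lower by that rule. Other lists lay nearer 0. Medians were -0.05 for amacrine (8 of 12 negative), -0.03 for ganglion cell (7 of 11) and -0.09 for cone markers (8 of 10). Endothelial and pericyte markers had -0.10 (9 of 11 negative), rod markers 0.09 (2 of 15) and pigment epithelium markers 0.10 (5 of 10). Astrocyte markers had -0.10 (5 of 7 negative) and horizontal cell markers -0.09 (5 of 6). Summed bipolar markers ran from 28000 to 28940 in control retina and from 21857 to 27877 in knockout retina, and summed microglia markers from 1084 to 1937 and from 1238 to 1474. All bipolar and microglia markers were above 0 in every retina library. The part of any of these cells in the result was not tested.

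The genotype effect in rods minus that in retina was tested on the TMM scale. limma called 0 of 9, where 0% of 25584 genes were called in either direction. All 9 differences were negative, from -0.50 for Apoe to -0.10 for Aqp4, where 49.2% of all genes were negative. At an unadjusted p below 0.05 limma had 0 of 9 (2.6% of all genes were lower by this rule). edgeR had 1 (919 of 25584 genes) and DESeq2 1 (701 of 25584), with none of the 9 called by either. Dkk3 came nearest, at -0.30 with a 95% interval of -0.62 to 0.01 (limma adjusted p = 0.978). With the replicate number as a block, which pairs rods with retina, 3 of the 9 were lower at an unadjusted p below 0.05, where 1034 of 25584 genes were, and none was called. The intervals of all 9 included 0, and that of Apoe reached from -1.21 to 0.22.

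The signal of the retinal pigment epithelium, the tissue that adjoins the photoreceptors, differed between libraries of the same group. Summed values of 10 pigment epithelium markers were 650, 184 and 1260 in control rods and 837, 627 and 253 in knockout rods. In retina they were 6711, 1454 and 14377 in controls and 7636, 8815 and 2653 in knockouts. Apoe ranked the libraries in the same order as these markers in control rods, knockout rods and control retina, and not in knockout retina. Aqp4 and Dkk3 did so in 2 of the 4 groups, Glul, Clu and Vim in 1, and Slc1a3, Kcnj10 and Sox9 in 0. Each group has only 3 libraries to order, and the share of all genes with the same order was not counted. All 10 markers were above 0 in every retina library, and at most 1 was at 0 in a rod library. With the log2 of the summed markers as a covariate, chosen after seeing the data, the rod fold changes were -0.56 for Apoe (limma adjusted p = 0.585) and -0.45 for Clu (limma adjusted p = 0.329). Over all alternatives the adjusted p in rods ran from 0.519 to 0.999 for Apoe and from 0.329 to 0.999 for Clu. Without the richest library of each genotype, Apoe in retina was 0.15 and Vim 0.049, both opposite in sign to the full comparison. Summed microglia markers in control retina, at 1917, 1084 and 1937, were also lowest in library 2, as every member except Glul and Slc1a3 was. The part of either cell type in these values was not tested beyond this.

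**Figure D5:**
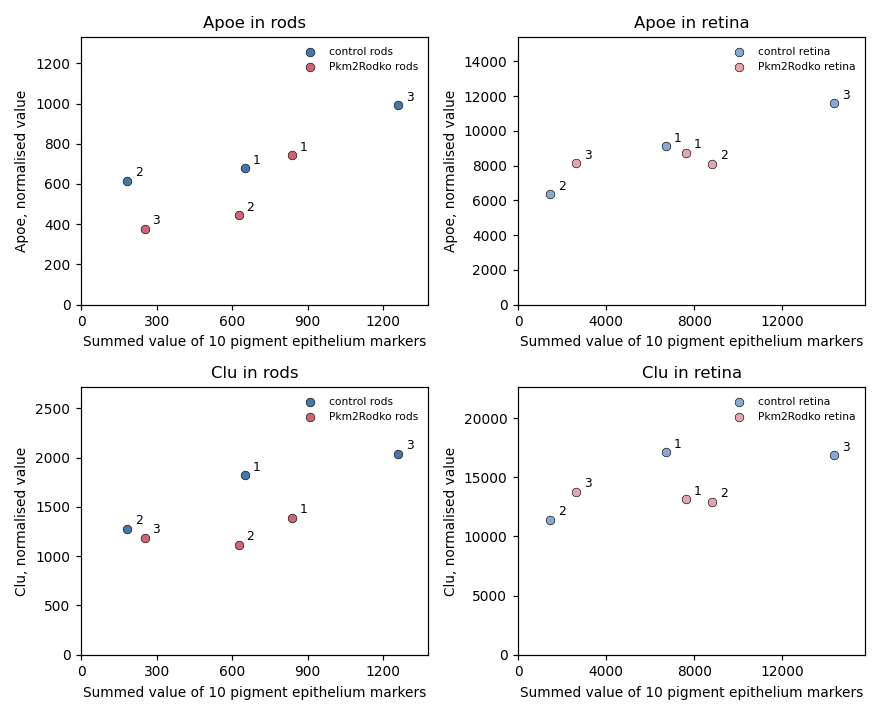
Normalised values of Apoe and Clu against the summed value of 10 pigment epithelium markers, with 1 point per library, labelled with its replicate number, for rods and retina. Control rod library 3 is highest on both axes for both genes (1260 for the markers), and control retina library 2 is lowest on both. Among knockout retina libraries, library 3 is lowest for the markers (2653) and highest for Clu (13772).

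The genes whose levels were most like the mean of the 9 were found among 12721 genes with at least 50 scaled reads on average. Over the 12 libraries they were Prelp, Vat1l, Nptx2, Six6 and Rgs2, with Pearson correlations of 0.998 to 0.999, a description in which the gap between rods and retina carries most of the value. After each group mean was taken off, the closest were Prelp (0.965), Cxcl16 (0.943), Vat1l (0.941), Dohh (0.936) and Tceal9 (0.935). Prelp, a proteoglycan of the extracellular matrix, led both. Its values were 76.9, 104 and 110 in control rods and 76.0, 64.3 and 62.6 in knockout rods. In retina they were 1263, 1040 and 1192 in controls and 937, 1003 and 1054 in knockouts. Control library 1 in rods and knockout library 1 in retina were low for Prelp, as they were for Glul, Slc1a3 and Kcnj10.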

How the data were processed

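Libraries were grouped by the deposited labels. The values the authors deposited are a signal, namely gene read counts over a size factor, kept to 1 decimal, with the factors set among the 6 libraries of a fraction. The submitters' processing notes name CASAVA 1.8.2, HISAT2, DESeq2, edgeR and build GRCm39, while the counter, annotation and use of strand are not given in the sources used here. Reads overlapping Teddm2 (at Glul) or an antisense gene (at Aqp4) could therefore not be separated by strand. Whole reads were recovered for 99.9971% of positive values (tolerance 0.05). Genotype was tested within a fraction by limma 3.58.1 with a variance trend on log2(value + 1), for genes with a mean of at least 1 in a genotype. Rods were tested against retina on log2(reads + 1) after TMM scaling of all 12 libraries, which understates folds of low genes. Adjusted p-values are Benjamini-Hochberg over all genes tested. edgeR 4.0.16 and DESeq2 1.42.0 were run on the recovered reads as alternatives. Deviations of rods and retina with the same replicate number correlated at 0.273 to 0.556 in all 6 pairs. The numbers may therefore pair the fractions, which the labels do not state. Deviations of controls and knockouts with the same number showed no such correlation. Exon lengths came from GENCODE vM21, matched by gene ID. Statistics were tested on simulated data. Named genes were the 9 members, Pkm, up to 2 genes of smallest p and the highest gene of each list, and the 5 most alike, and others in counts of 5 or fewer were named after their values were seen. Kcnj2 was named outside this rule. The members and lists were chosen with earlier results of these data known. A gene of the channel list is not reported here.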

Additional observations from a re-analysis of the deposited data

How the results depend on the processing

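All 9 genes stayed called lower in rods than in retina, in both genotypes, under every alternative run, and 0 of 9 were called in either genotype comparison or in their difference under any. The block by replicate number called 9 of 9 for rods against retina and 0 of 9 for genotype, and changed no call of the 9. For genotype, where the numbers pair nothing in the labels, the block left 4 rod and 1 retina members at an unadjusted p below 0.05. By this rule 689 of 20658 genes were lower in rods and 465 of 25590 in retina. Apart from leaving out 1 library at a time, the alternatives gave 108 fold changes of the 9 genes in rods, of which 108 kept their direction, with adjusted p from 0.140 to 0.998. In retina 106 of 108 did, and the exceptions were Apoe (0.15) and Vim (0.049) without the libraries richest in pigment epithelium markers. Unadjusted counts in rods fell to 2 without the variance trend, where 744 of 20658 genes were lower. Leaving out 1 library reversed the sign for some genes. The ranges were -0.41 to 0.0099 for Sox9 in rods. In retina they were -0.29 to 0.0091 for Slc1a3, -0.30 to 0.13 for Apoe, -0.27 to 0.033 for Vim and -0.29 to 0.12 for Sox9. For the difference of the genotype effects they were -0.42 to 0.10 for Slc1a3, -0.20 to 0.026 for Aqp4, -0.31 to 0.020 for Kcnj10 and -0.38 to 0.10 for Sox9. Pkm in rods (-1.20) lost its call without the variance trend. Pkm in retina (-0.65) lost its call under the block, with 10 reads in every library, without the variance trend, and without control library 1 or 3 or any knockout library.

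Scaling between fractions changed the sign of genes near 0 in control rods against retina. Scaled by total reads, the log2 difference was -0.40 for Car2, -0.078 for Dmd, -0.51 for Dag1, -0.086 for Slc1a2 and -0.31 for Kremen1, and on the deposited values -0.44, -0.12, -0.56, -0.13 and -0.35, with Abca1 at -0.028. Dag1 was also -0.028 by RLE and -0.026 by DESeq2, and -0.021 to 0.10 with 1 library left out. Depth limits Sox9 most, with 16 to 39 reads per rod library.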
